A study of Mus musculus with 23 samples.

Results

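Chromatin accessibility was compared at NR5A2-bound regions of mouse embryos in which deletion of Nr5a2 was induced from the 2-cell stage. The values came from 2 pools of 8-cell embryos, 1 untreated and 1 treated with tamoxifen, and were read at all 16362 autosomal regions of the 16958 regions in the deposited table. The 596 regions on chromosomes X and Y were left out. By the authors' classes, 7938 of the autosomal regions were accessible and 8424 were not accessible.

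Both pools carried the inducible Nr5a2 knockout (iNrKO) and were collected as early 2-cell embryos 30 h after hCG, the hormone used to time ovulation. They were then cultured for 45 h to the 8-cell stage. The treated pool, whose genotype is labelled iNrKO_plus_Tam_NrKO, received 750 nM 4-hydroxytamoxifen for the first 24 h, and the untreated pool, labelled iNrKO_minus_Tam_Nrpp, received none. The 2 pools bear the same date. The Cre driver, the strain, the number of embryos in a pool and the meaning of Nrpp are not given in the labels. No pool received tamoxifen without the inducible knockout, so the drug and the deletion cannot be told apart here. The same table holds merged values of a maternal-zygotic (mz) series, from 8 embryos labelled heterozygous and 13 labelled knockout, collected without culture. Those values are given beside the inducible ones only where they were measured at the same regions.

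NR5A2 is an orphan nuclear receptor, a transcription factor that binds DNA as a monomer at an extended site close to TCAAGGTCA. It is expressed in the early embryo, where its known targets include Pou5f1, the gene of the pluripotency factor OCT4, and later in liver, pancreas and ovary. ATAC-seq uses a transposase that inserts sequencing adapters into open DNA, so the number of reads at a region follows how accessible it is. CUT&RUN cuts DNA next to an antibody-bound protein, and its signal gave the list of regions bound by NR5A2.

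This site can be seen in the promoters that the listed regions overlap. Windows from 250 bases before to 50 bases after each transcription start (RefSeq, GRCm38.p6) were searched for TCAAGGNCA and, on the other strand, TGNCCTTGA, where N is any base. The motif was present in 259 of all 20062 windows (1.29%) and in 31 of the 468 windows overlapped by a listed region (6.62%). The 8 sequences below are shown because their motif lies inside a listed region and outside any annotated protein-coding gene span. Their regions held the most reads of the 15 such cases. Each reads 5′ to 3′ on the strand of the gene, and capitals mark the motif.

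Castor1: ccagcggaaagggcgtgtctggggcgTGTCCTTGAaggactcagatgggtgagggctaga
Gm13102: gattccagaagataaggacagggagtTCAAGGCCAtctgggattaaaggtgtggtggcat
Mfsd10: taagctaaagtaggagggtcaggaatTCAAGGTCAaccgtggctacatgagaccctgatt
Elovl6: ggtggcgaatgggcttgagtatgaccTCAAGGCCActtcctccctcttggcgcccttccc
Psap: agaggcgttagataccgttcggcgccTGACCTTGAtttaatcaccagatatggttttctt
Psmc3ip: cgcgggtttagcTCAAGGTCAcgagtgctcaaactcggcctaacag
Pramel4: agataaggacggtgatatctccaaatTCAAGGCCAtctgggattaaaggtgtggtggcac
Tesk1: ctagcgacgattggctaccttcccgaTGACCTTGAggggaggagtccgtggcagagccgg

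They lie at chr11:4218033-4218092 (plus strand), chr4:144099753-144099812 (plus), chr5:34637400-34637459 (minus), chr3:129532172-129532231 (plus), chr10:60277453-60277512 (plus), chr11:101095640-101095685 (minus), chr4:144058998-144059057 (plus) and chr4:43442199-43442258 (plus), in the order shown. Those of Gm13102 and Pramel4, neighbours on chromosome 4, share a run of 34 bases, so reads of one could be placed at the other. A similar but not identical stretch lies at the motifs of Gpr161 on chromosome 1 and Sgk1 on chromosome 10, which are not printed. The longest run shared by any other pair of the 8 was 9 bases, the length of the motif itself. Values at these promoters follow below.

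Values were deposited as RPKM, a read count scaled to library depth and window length, with 1 value per pool and region. Each value was a whole multiple of 0.163 RPKM in the untreated and of 0.170 RPKM in the treated pool, so whole reads could be recovered, and the treated pool had 0.959 of the untreated pool's depth. The median region held 14 reads untreated and 9 treated, for which exact 95% Poisson intervals are 7.65 to 23.5 and 4.12 to 17.1 reads. At 0 reads were 217 regions (1.33%) in the untreated and 347 (2.12%) in the treated pool, where 3 reads, the limit that a count of 0 allows, equal 0.490 and 0.510 RPKM. With 1 pool per arm there is no spread between samples and no test, and every difference below lacks a replicate check. Intervals are exact 95% Clopper-Pearson intervals on recovered reads. They compare the 2 libraries and cover counting error only, and reads without molecular identifiers are not independent molecules. The Nr5a2 gene (chr1:136842562-136960448) holds no region of the table, so the deletion itself could not be checked, and no gene expression was measured by which the labelled embryo stage could be checked.

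Accessibility at NR5A2-bound regions was lower in the treated pool as a whole. The mean over all autosomal regions was 2.76 RPKM untreated and 1.92 RPKM treated. The ratio of the summed values, treated over untreated, was 0.698 (0.694 to 0.702), or −0.52 on the log2 scale, and it is called the shared ratio below. Accessible regions went from a mean of 3.99 to 2.78 RPKM, a ratio of 0.696 (0.691 to 0.701). Regions classed as not accessible went from 1.60 to 1.12 RPKM, a ratio of 0.702 (0.695 to 0.710), and the intervals of the 2 classes met although their levels were far apart. By autosome the ratio lay between 0.660 on chromosome 9 and 0.762 on chromosome 15, below 1 on all 19. The table holds only NR5A2-bound regions, so fewer reads in all open chromatin of the treated library and a loss at these regions in particular cannot be told apart. Nor can fewer embryos or cells with an open region and less opening in each cell, since whole embryos were pooled.

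Single regions were called by size, since no test was possible: a region counted as 2-fold lower or higher when its ratio was at most 1/2 or at least 2, among the 9848 regions with at least 20 reads over both pools. Of these, 2650 were 2-fold lower (26.9%) and 124 were 2-fold higher (1.26%). The median ratio was 0.695. Set against the shared ratio instead of 1, 1237 regions were 2-fold lower (12.6%) and 583 were 2-fold higher (5.92%), so the choice of reference sets most of the imbalance between directions. The remaining imbalance depended on the settings: with 1 RPKM added to each value the counts relative to the shared ratio were 251 lower and 346 higher, and with a minimum of 50 reads they were 68 and 66. The interval lay wholly below the shared ratio in 735 regions (7.46%) and wholly above it in 656 (6.66%), where an interval of this kind misses a true value on either side in up to 2.5% of cases by construction. It lay wholly below 1 in 2270 regions (23.1%) and wholly above 1 in 73 (0.741%). At 0 treated reads were 7 of the 9848 regions, and none was at 0 untreated reads. A further 164 had 1 to 3 treated reads, against 1 region with 1 to 3 untreated reads.

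**Figure D1:**
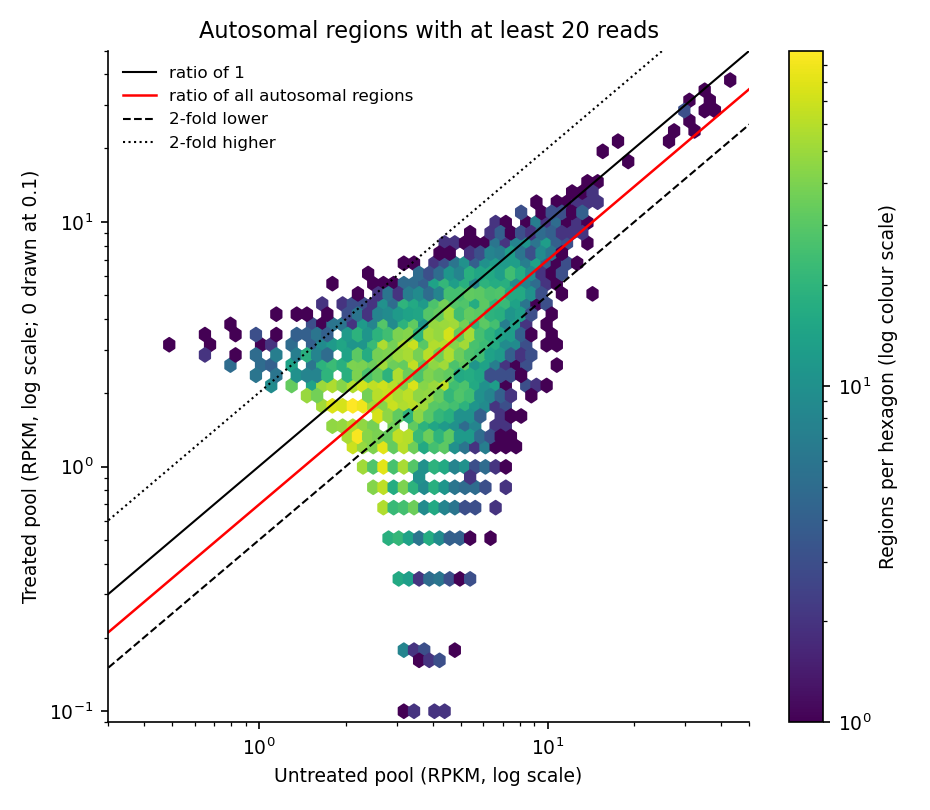
Untreated against treated RPKM (both axes on a log scale) of the 9848 autosomal regions with at least 20 reads over both pools, as hexagons coloured by the number of regions. The cloud lies around the red line, the shared ratio of 0.698, and more regions lie under the dashed 2-fold line (2650) than over the dotted one (124); the 7 regions at 0 treated reads are drawn at 0.1.

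The most open regions differed least between the pools. The ratio was 0.642 (0.633 to 0.650) in regions with 20 to 29 reads over both pools, 0.681 with 30 to 49, 0.766 with 50 to 99 and 0.870 (0.847 to 0.894) in the 145 regions with 100 or more. Of those 145, 1 was 2-fold lower. These groups were formed on the reads being compared, and a region with many reads in either pool enters the upper ones. Reads of the mz heterozygotes, a separate set of libraries, gave a smaller range. There the ratio was 0.714 in regions with 0 heterozygote reads, 0.686 with 1 to 4, 0.669 with 5 to 9, 0.697 with 10 to 19 and 0.782 (0.770 to 0.795) in the 770 regions with 20 or more.

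Accessible regions at transcription starts differed less between the pools than distal ones. Distances were measured to the nearest RefSeq start for the 12540 regions where it was known, leaving out chromosome 18 and regions next to genes with no listed start. The 129 accessible regions that covered a start had a mean of 5.75 RPKM untreated and 4.92 RPKM treated, a ratio of 0.856 (0.819 to 0.894). Accessible regions up to 1 kb from a start (408 regions) had a ratio of 0.848 (0.827 to 0.870). The ratio was 0.690 at 1 to 10 kb, 0.677 at 10 to 50 kb, 0.656 (0.638 to 0.674) at 50 to 100 kb and 0.636 (0.617 to 0.656) beyond 100 kb. Over the same 6 groups, the share of regions with at least 20 reads that were 2-fold lower went from 6.25% and 11.9% to 24.6%, 29.2%, 32.8% and 34.6%.

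Taken as 2 groups, the 537 accessible regions within 1 kb of a start had a ratio of 0.850 (0.832 to 0.869), and the 5560 farther ones had 0.676 (0.670 to 0.682). Of the near regions with enough reads, 54 were 2-fold lower and 3 were 2-fold higher. In the mz series the same groups had ratios of knockout over heterozygote of 0.781 (0.760 to 0.802) and 0.630 (0.622 to 0.638), in the same order. Over all autosomal regions the mz ratio was 0.671 (0.666 to 0.677). Near regions were also more open, with 5.43 against 3.82 RPKM untreated, and had slightly less NR5A2 signal, with a mean of 5.11 against 5.90 RPKM in CUT&RUN. The part of openness in this difference was not tested. Not accessible regions did not share the contrast at 1 kb. The 201 of them up to 1 kb from a start, not covering it, had a ratio of 0.717 (0.671 to 0.764), against 0.710 (0.696 to 0.724) at 1 to 10 kb. Farther out their ratio was also lower, at 0.701 for 10 to 50 kb, 0.678 for 50 to 100 kb and 0.642 (0.609 to 0.678) beyond 100 kb. Only 8 not accessible regions covered a start, and their interval was wide (0.984, 0.722 to 1.34).

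Regions with more NR5A2 signal had lower ratios. Autosomal regions were put into 5 equal groups by CUT&RUN RPKM. In accessible regions the ratio went from 0.753 (0.736 to 0.771) in the weakest group to 0.676 (0.668 to 0.684) in the strongest. The range was wider in not accessible regions, at 0.823 (0.804 to 0.843), 0.718, 0.685, 0.661 and 0.611 (0.595 to 0.628) from weakest to strongest. The strongest group of not accessible regions went from a mean of 2.36 to 1.44 RPKM, and the weakest from 1.08 to 0.892 RPKM.

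**Figure D2:**
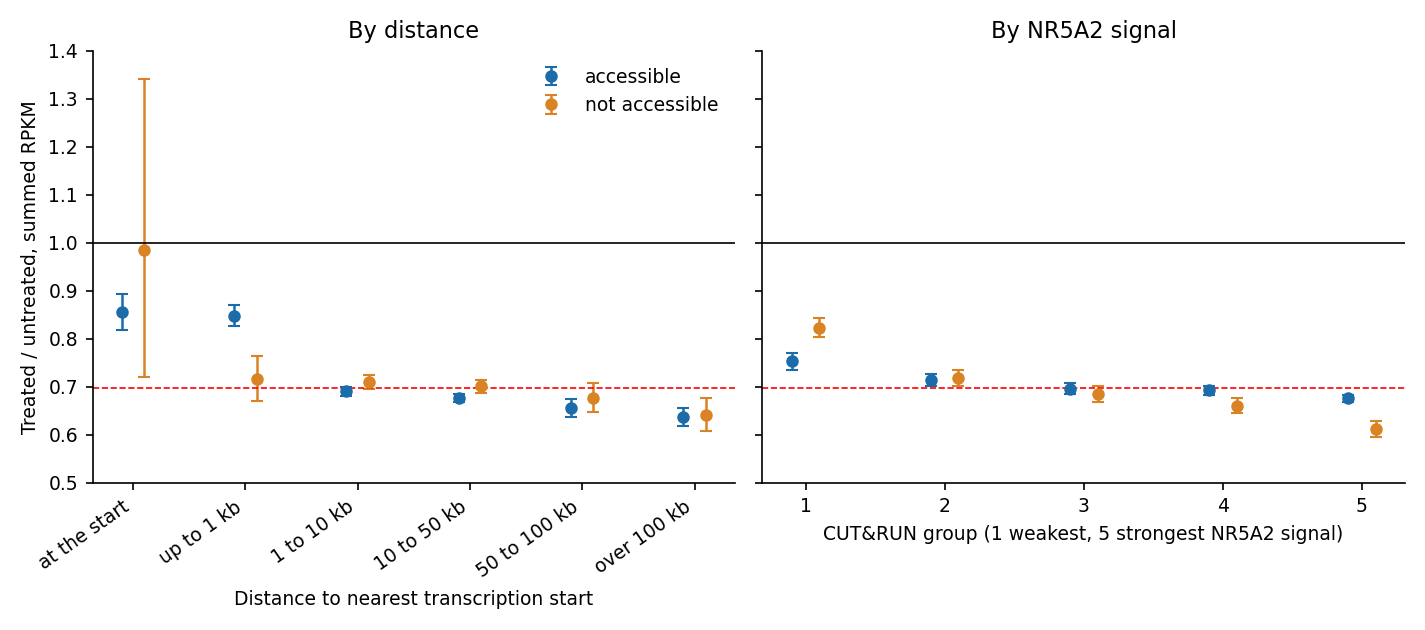
Treated over untreated ratio of summed RPKM in accessible (blue) and not accessible (orange) regions, by distance to the nearest transcription start (left) and by CUT&RUN group from weakest to strongest (right), with exact 95% intervals for counting error. The dashed line is the shared ratio and the solid line is 1; accessible regions within 1 kb of a start lie near 0.85, and not accessible regions go from 0.823 in the weakest to 0.611 in the strongest CUT&RUN group.

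The order by NR5A2 signal was the same in each of 3 distance groups. Accessible regions were split at 5.01 CUT&RUN RPKM. Within 1 kb of a start, the weaker regions had a ratio of 0.892 (0.866 to 0.919) and the stronger 0.800 (0.774 to 0.827). At 1 to 50 kb the ratios were 0.693 (0.683 to 0.703) and 0.676 (0.667 to 0.684), with intervals that met. Beyond 50 kb they were 0.668 (0.649 to 0.687) and 0.624 (0.605 to 0.643). Regions near starts with stronger signal thus still had a higher ratio than distal regions with weaker signal.

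The authors moved CUT&RUN summits onto the NR5A2 motif, and the deposited table gives the positions before and after. The 990 accessible regions whose summit was not moved had a ratio of 0.790 (0.777 to 0.804), and the 6948 whose summit was moved had 0.678 (0.673 to 0.683). Why a summit was left in place is not stated. Regions with an unmoved summit were also more open, with a mean of 5.07 against 3.84 RPKM untreated. They had less CUT&RUN signal, with a mean of 4.36 against 6.02 RPKM. The part of either in this difference was not tested. Among moved summits, the distance from the motif position to the ATAC-seq summit set no steady order: the ratio was 0.668 up to 50 bp, 0.681 at 50 to 100 bp, and 0.672, 0.698 and 0.670 in the 3 groups farther away. Accessible regions with no other listed region within 25 kb had a ratio of 0.673 (0.665 to 0.681), which went through 0.695 and 0.713 to 0.732 (0.715 to 0.749) in the 585 with 4 or more.

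Among accessible regions, those at promoters with the NR5A2 motif had lower ratios than those at promoters without it. The 25 accessible regions overlapping a promoter window with the motif had a mean of 5.38 RPKM untreated and 4.23 RPKM treated, a ratio of 0.786 (0.707 to 0.873). The 336 accessible regions overlapping only windows without it went from 5.95 to 5.33 RPKM, a ratio of 0.896 (0.873 to 0.920). Their median ratios were 0.695 and 0.912, and their mz ratios 0.707 (0.617 to 0.809) and 0.808 (0.783 to 0.834). The intervals of the summed inducible ratios met, and regions with the motif also had more CUT&RUN signal, with medians of 6.26 against 4.25 RPKM. Not accessible regions had the other order, with few regions and wide intervals: 1.00 (0.656 to 1.52) over 5 regions with the motif and 0.705 (0.596 to 0.832) over 27 without it, and mz ratios of 1.17 (0.578 to 2.50) and 0.777 (0.613 to 0.988). A match to these letters is a description of the window and does not show a site in use.

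At the 8 printed promoters the values went in both directions. The region at Elovl6, which encodes a fatty acid elongase, went from 6.86 to 3.57 RPKM (0.521, 0.293 to 0.900), and its interval alone among the 8 lay below 1. At Psap, the gene of the lysosomal protein prosaposin, the values were 5.55 and 3.74 RPKM (0.675, 0.376 to 1.19). At Psmc3ip, a recombination factor gene, they were 5.06 and 4.08 RPKM. Mfsd10, a transporter gene, had 5.71 and 4.93 RPKM and Gm13102 had 5.55 and 5.28 RPKM. For 3 of the 8 the treated value was the higher one, and each of their intervals included 1. Castor1, an arginine sensor of the mTORC1 pathway, had 7.83 and 8.17 RPKM. Pramel4 had 3.92 and 4.76 RPKM, and Tesk1, a protein kinase gene, had 3.10 and 5.45 RPKM (1.76, 0.965 to 3.28).

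The regions with the lowest upper limits of the ratio had few or no treated reads. A region inside Cux1, a homeodomain transcription factor gene (chr5:136389063-136389273), had 4.41 RPKM or 27 reads untreated and 0 reads treated, a ratio with an upper limit of 0.153. A region inside Arhgap26 on chromosome 18 (chr18:38849547-38849895) went from 26 reads to 0, with an upper limit of 0.159. Regions inside Elovl5, a fatty acid elongase gene (chr9:77930493-77930684), and inside AI987944 (chr7:41390613-41390881) each went from 25 reads to 0. Nearest to Drd3, Prkce, Rbm47, Cpne4 and Prpf18 lay regions with 18 to 21 untreated reads and 0 treated reads.

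The other 3 of these 12 regions kept 1 or 2 treated reads. They were a region inside Arhgef10l, a guanine nucleotide exchange factor gene, with 30 reads untreated and 1 treated (0.0348, 0.000852 to 0.209), a region 50.2 kb from Slc2a12 with 26 and 1, and a region 140 kb from Npy2r with 34 and 2. Of all 12, 8 were classed as accessible, as were 7133 of the 9848 regions with at least 20 reads and 7938 of all 16362. The mz values were lower in the knockout in 11 of the 12, where the mz ratio of all autosomal regions was itself 0.671. The exception was the region inside Prpf18, listed at 0 in heterozygotes and at 0.359 RPKM in knockouts. Most of the lower values rested on few reads. The AI987944 region had 9 heterozygote and 0 knockout reads, or 5.29 and 0 RPKM, and that of Rbm47 had 4.11 and 0.359 RPKM. That of Cux1 had 5 and 6 reads, or 2.94 and 2.15 RPKM, and that of Elovl5 1 and 1 reads, both lower only after scaling to depth. The mz interval lay below 1 only at Arhgap26, AI987944, Rbm47 and Slc2a12.

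The regions with the highest lower limits were as a rule nearly closed in the untreated pool. A region 7.45 kb from Alms1, a centrosomal protein gene (chr6:85579638-85580045), had 3 reads untreated and 18 treated (6.26, 1.83 to 33.2). A region inside Kdm5a, a histone H3K4 demethylase gene (chr6:120376688-120377313), had 0.816 and 3.91 RPKM, or 5 and 23 reads. Regions inside Zfp609 and Zfyve9 each had 0 reads untreated and 8 treated, a ratio with a lower limit of 1.78, and a region 56.6 kb from Mn1 had 0 and 7. In 1 of the 12, inside Cdh13, a cadherin gene (chr8:119273451-119274039), more than 10 reads were present untreated: 1.80 and 5.62 RPKM, or 11 and 33 reads (3.13, 1.54 to 6.86).

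The other 6 lay nearest to Ndst4 (4 and 20 reads), Pik3r3 (2 and 14), Gapvd1 (1 and 11), Rps6ka1 (4 and 19), BC052040 (7 and 26) and Fn1 (5 and 20). The mz values, heterozygote first, were 2.35 and 3.95 RPKM at Cdh13, 3.52 and 3.59 RPKM at Alms1, and 3.52 and 2.87 RPKM at Kdm5a. At Kdm5a these mz values rested on 6 and 8 reads, a ratio of 0.814 (0.248 to 2.85), so no mz direction can be read there. The mz intervals at Cdh13 and Alms1 also included 1.

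Regions of the same direction in the inducible pools also differed in the mz series, whose libraries took no part in the grouping. The 1237 regions 2-fold below the shared ratio had a mean of 4.05 RPKM in mz heterozygotes and 1.85 RPKM in mz knockouts, a ratio of 0.456 (0.442 to 0.471). The 8028 regions between the 2-fold limits had 0.683 (0.676 to 0.690), and the 583 regions 2-fold above the shared ratio had 0.898 (0.859 to 0.938). In the 124 regions 2-fold higher than untreated without regard to the shared ratio, the mz ratio was 0.917 (0.819 to 1.03). Regions that were higher after tamoxifen were therefore not higher in the mz knockouts as a group. Across the 3031 regions with enough reads in both series, the log2 ratios had a Pearson correlation of 0.30 and a Spearman correlation of 0.29. This is a description over regions, which share their pools and their base composition between the series and are not replicates.

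**Figure D3:**
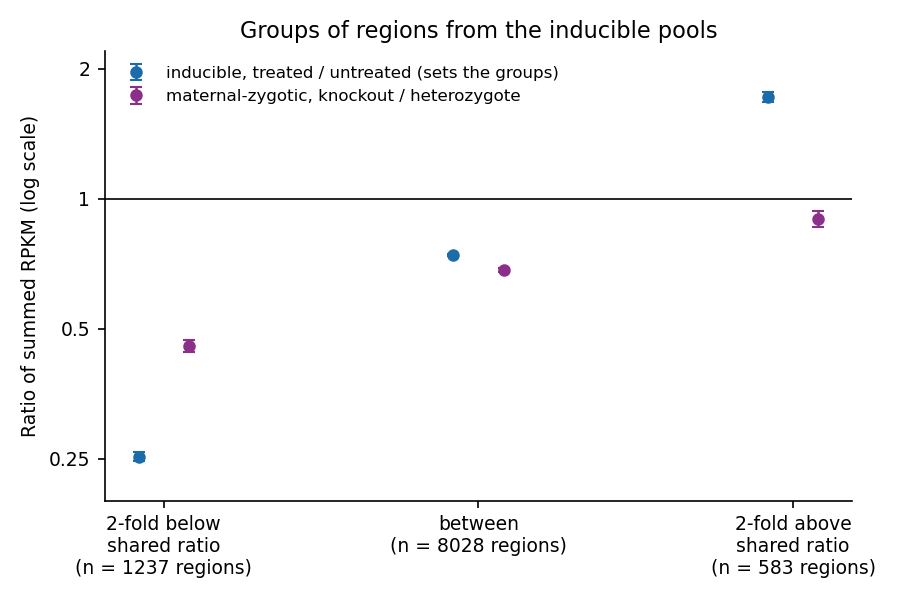
Ratio of summed RPKM (log scale) in 3 groups of autosomal regions with at least 20 reads, set by the inducible ratio relative to the shared ratio; blue points are the inducible ratios that set the groups and purple points the maternal-zygotic ratios, with exact 95% intervals for counting error. The maternal-zygotic ratio goes from 0.456 through 0.683 to 0.898 across the groups and stays below 1.

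Neighbouring regions had ratios more alike than distant ones. The Pearson correlation of log2 ratios between adjacent listed regions was 0.28 over 539 pairs up to 2 kb apart, 0.18 over 1262 pairs at 2 to 10 kb and 0.09 over 2416 pairs at 10 to 50 kb. It was 0.02 over 1327 pairs at 50 to 200 kb and 0.05 over 730 pairs beyond. Regions a short way apart may share reads if the authors counted wider windows, a detail the sources used here do not give.

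Summed over genes, the lower values held for most loci with several bound regions. Regions inside a protein-coding gene or within 10 kb of it were summed for the 587 genes with at least 3 such regions and 100 reads. The treated sum was the lower in 531 genes (90.5%), and the median ratio was 0.720. It was at most 1/2 in 57 genes and at least 1 in 56. The interval lay wholly below the shared ratio in 56 genes (9.54%) and wholly above it in 62 (10.6%), and wholly above 1 in 1 gene. Exons and introns were not told apart, because the gene table used gives only spans.

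Cux1 had the lowest summed ratio (chr5:136248135-136567590). Its 5 regions went from 1.14, 4.41, 3.59, 4.08 and 1.63 RPKM untreated to 0.681, 0, 0.340, 0.681 and 0.681 RPKM treated, lower in each. The sums were 14.9 and 2.38 RPKM, a ratio of 0.160 (0.0844 to 0.283), and the mz ratio was 0.305 (0.163 to 0.552). Dpp6, which encodes an accessory subunit of potassium channels, followed at 0.209 (0.116 to 0.354) over 3 regions, with values of 7.51, 5.39 and 0.979 RPKM untreated and 1.19, 1.70 and 0 RPKM treated.

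Rin2, a Rab5 exchange factor gene, had 2.12, 5.39, 6.86 and 4.41 RPKM untreated and 1.02, 1.87, 1.53 and 0.681 RPKM treated in its 4 regions, a ratio of 0.272 (0.176 to 0.409) and an mz ratio of 0.232. Pitpnc1, a phosphatidylinositol transfer protein gene, had a ratio of 0.269 (0.163 to 0.430). Every region of these 4 genes was lower in the treated pool. Arhgef10l (0.324), Top3a, a DNA topoisomerase gene (0.331), Btbd7 (0.337) and Trappc8 (0.348) completed the 8 lowest. The mz ratios of these 8 genes lay between 0.232 and 0.611, against 0.671 over all autosomal regions. In 4 of them, namely Arhgef10l, Top3a, Btbd7 and Trappc8, the mz interval included 0.671 and reached above 1. The mz intervals of Cux1, Dpp6, Pitpnc1 and Rin2 lay below 0.671.

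At the other end, Ptpn21, a protein tyrosine phosphatase gene (chr12:98676741-98737613), was the 1 gene whose interval lay above 1. Its 3 regions went from 4.41, 0.816 and 2.29 RPKM to 8.00, 1.02 and 3.74 RPKM, a ratio of 1.70 (1.16 to 2.51), while its mz ratio was 0.829 (0.495 to 1.40). Smyd1, a muscle histone methyltransferase gene, had 1.45 (0.987 to 2.13) over 4 regions, all classed as not accessible. C130073F10Rik (1.33), Rps6ka1 (1.29), Copz1 (1.28), Sde2 (1.26), Zfp239 (1.25) and Aff4 (1.24) followed with intervals that included 1. Of the 4 regions of Rps6ka1, 1 went from 0.653 to 3.23 RPKM, and the ratios of the others lay between 0.900 and 1.39.

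**Figure D4:**
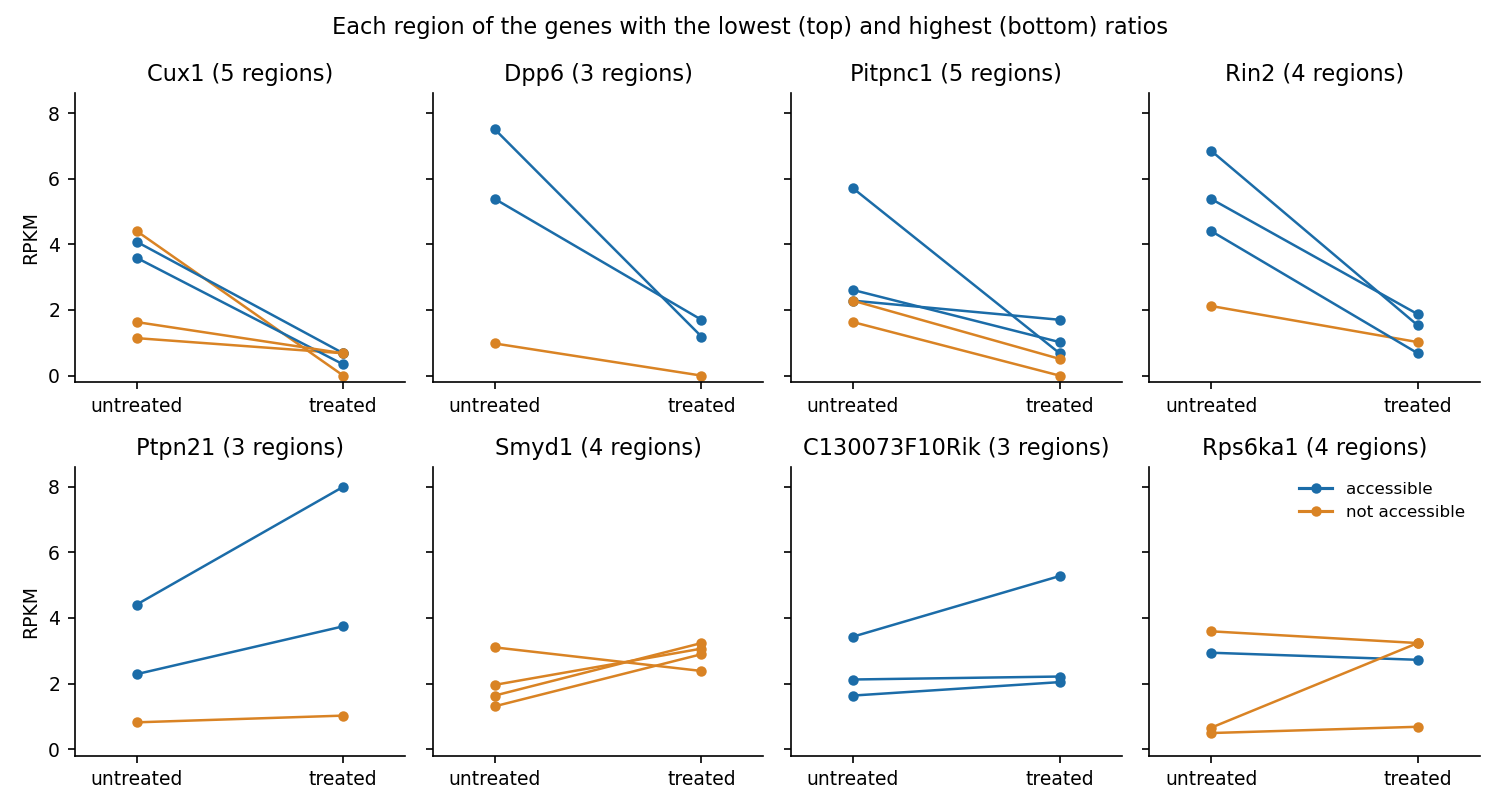
Untreated and treated RPKM of each listed region at the 4 genes with the lowest (top row) and the 4 with the highest (bottom row) summed ratio; lines join the values of a region, blue for accessible and orange for not accessible. All regions of Cux1, Dpp6, Pitpnc1 and Rin2 go down, and the 3 regions of Ptpn21 go up, the largest from 4.41 to 8.00 RPKM.

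Gene lists were read by the regions within 50 kb of their genes, against the 26.9% of all regions with enough reads that were 2-fold lower. Genes in these lists were named by their number of reads or after their values were seen, and list intervals cover counting error only. Lists next to each other in the order of ratios had overlapping intervals throughout. Regions near pluripotency and inner cell mass genes had the lowest list ratio of summed values, 0.634 (0.587 to 0.684), though not the lowest median, with means of 3.35 RPKM untreated and 2.13 RPKM treated over 86 regions. Of their 64 regions with enough reads, 15 were 2-fold lower and 1 was higher (median ratio 0.672), a share of 23.4% that is below the background. In each of the 13 genes of the list with at least 50 reads the treated sum was the lower, and the interval lay below 1 in 12. Of all 8369 protein-coding genes with at least 50 reads within 50 kb, the treated sum was the lower in 88.1%. The interval lay below 1 in 41.4%, below the shared ratio in 7.07% and above it in 10.6%. This background was not matched for reads, and intervals narrow with more reads. The 13 genes held from 54 reads (Esrrb) to 337 (Sall4), so 12 of 13 against 41.4% is not a like comparison.

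Tdgf1, the gene of the Nodal coreceptor Cripto, had summed values of 12.4 RPKM untreated and 3.40 RPKM treated over 6 regions (0.274, 0.159 to 0.454). Klf4, a Krüppel-like pluripotency factor gene, had 23.2 and 9.87 RPKM over 7 regions (0.426, 0.308 to 0.582), and its mz ratio was 0.209. These were the 2 genes of the list with an interval wholly below the shared ratio. Pou5f1 went from 31.0 to 18.7 RPKM (0.604, 0.473 to 0.767), with all 7 regions lower. Nanog had 0.704 (0.522 to 0.944), Klf5 0.710 (0.561 to 0.897), Klf17 0.674 and Klf2 0.678, all near the shared ratio. The Nanog region with the most reads, 4.59 kb from the gene, went from 8.00 to 4.93 RPKM.

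Regions near trophectoderm genes, which mark the outer lineage of the blastocyst, had a ratio of 0.647 (0.574 to 0.728) over 37 regions. Of 27 with enough reads, 10 were 2-fold lower and 1 was higher. Tead4, the transcription factor that starts this lineage, went from 19.7 to 7.66 RPKM over 4 regions (0.388, 0.269 to 0.550), against an mz ratio of 0.814, and without it the list ratio was 0.698. Gata3 had 0.498 (0.281 to 0.855), Hand1 0.515 (0.347 to 0.754) and Tfap2c 0.620 (0.417 to 0.912), intervals that include the shared ratio. Tfap2a had 1.23 (0.784 to 1.95), Aqp3 0.804 (0.571 to 1.13) and Cdx2 0.968 (0.419 to 2.22), the last from a single region. Of the 11 genes of the list with at least 50 reads, Tead4 alone had an interval wholly below the shared ratio. Tfap2a alone had one wholly above it. The region with the most reads, 12.8 kb from Id2, went from 9.63 to 5.45 RPKM, and the 3 regions of Id2 together had 0.720 (0.53 to 0.97). Primitive endoderm genes had 0.720 (0.624 to 0.830) over 29 regions, with Gata6 at 0.592 (0.427 to 0.813) and Gata4 at 1.02 (0.741 to 1.40).

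Regions near polarity and Hippo pathway genes, which tell outer from inner cells, had a ratio of 0.660 (0.598 to 0.728) over 53 regions, and 14 of 44 with enough reads were 2-fold lower and none higher. Yap1, the coactivator of the pathway, went from 23.8 to 12.3 RPKM, lower in 6 of 6 regions (0.514, 0.382 to 0.686). Its partner Tead1 had 0.455 (0.269 to 0.747). The apical polarity genes Pard6b, Pard3 and Prkcz had 0.502 (0.353 to 0.705), 0.509 (0.345 to 0.742) and 0.605 (0.425 to 0.856). Prkci, a further gene of that complex, had 1.09 (0.588 to 2.02) from a single region. Wwtr1, the gene of the related coactivator TAZ, had 0.885 (0.639 to 1.22). Of the 12 genes of the list with at least 50 reads, Yap1 alone had an interval wholly below the shared ratio. No gene had one wholly above it.

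Cell junction and compaction genes had a ratio of 0.764 (0.700 to 0.833) over 65 regions, and 0.608 (0.520 to 0.709) when only the 25 regions within 10 kb were taken. Tjp1, a tight junction scaffold gene, was lower in 8 of 8 regions, from 16.6 to 8.68 RPKM (0.521, 0.365 to 0.737). Cdh1, which encodes E-cadherin, had 0.614 (0.429 to 0.871) and Epcam 0.472 (0.259 to 0.829). The intervals of Tjp1, Cdh1 and Epcam included the shared ratio. Of the 13 genes with at least 50 reads, none had an interval wholly below the shared ratio and 5 had one wholly above it. Among the 5 were Gja1, a gap junction gene, with 24.8 and 22.3 RPKM (0.899, 0.706 to 1.14), Ocln (0.953) and Jup (0.973).

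For mitotic genes the list ratio was 0.677 (0.620 to 0.740) over 77 regions, with 13 of 48 regions 2-fold lower and 1 higher. Ect2, a cytokinesis exchange factor gene, had 17.8 and 8.17 RPKM (0.459, 0.320 to 0.650), and the centromere histone gene Cenpa had 10.8 and 4.59 RPKM (0.427, 0.262 to 0.677). These were the 2 of 16 genes with an interval wholly below the shared ratio, and 3 had one wholly above it. The kinase gene Aurka had 0.447 (0.227 to 0.840), the checkpoint gene Bub1b 0.461 (0.254 to 0.808) and the kinesin gene Kif11 0.586 (0.429 to 0.795), intervals that include the shared ratio. Plk1 (1.04), Cdc20 (1.07), Aurkb (0.946) and Numa1 (0.978) were close to 1. In DNA replication and repair genes the ratio was 0.765 (0.699 to 0.838) over 78 regions, and 4 of 41 were 2-fold lower, or 9.76%. Mcm10, a replication initiation factor gene, was the 1 gene there whose interval lay below the shared ratio, with 31.3 and 16.0 RPKM and all 8 regions lower (0.510, 0.394 to 0.657); without it the list ratio was 0.817.

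Regions near nuclear receptor and cofactor genes had a ratio of 0.760 (0.703 to 0.822) over 79 regions, and 14 of 56 with enough reads were 2-fold lower and 1 was higher. Cofactor genes had some of the lowest ratios of the list. Nrip1, a corepressor gene, went from 7.18 to 1.19 RPKM over 3 regions (0.166, 0.0630 to 0.371), and Ncor1, also a corepressor gene, from 7.51 to 2.89 RPKM (0.385, 0.207 to 0.685). Rara, a retinoic acid receptor gene, was lower in 7 of 7 regions (0.530, 0.380 to 0.734). Its relative Rarg, with 14 regions, had 52.7 and 50.7 RPKM (0.962, 0.819 to 1.13).

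The 4 regions within 50 kb of Nr5a2 itself had summed values of 20.2 RPKM untreated and 22.5 RPKM treated, a ratio of 1.11 (0.862 to 1.43). All lie outside the gene. Lipid, sterol and bile acid genes had 0.711 (0.637 to 0.792) over 46 regions, and 8 of 32 were 2-fold lower and 2 higher. The steroidogenic gene Star had 17.1 and 8.85 RPKM (0.516, 0.363 to 0.727), and the lipoprotein receptor gene Scarb1 had 0.559 (0.379 to 0.817).

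**Figure D5:**
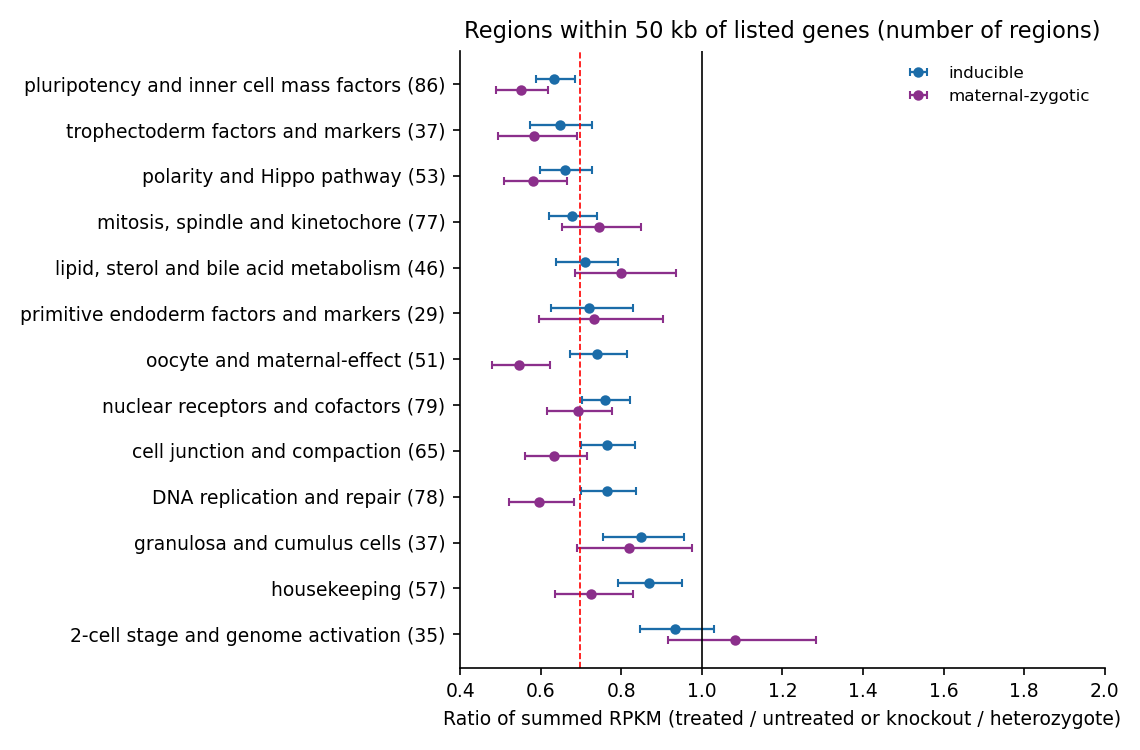
Ratio of summed RPKM over regions within 50 kb of the genes of 13 lists (number of regions in parentheses), for the inducible pools (blue) and the maternal-zygotic series (purple), with exact 95% intervals for counting error. The dashed line is the shared ratio of the inducible pools and the solid line is 1. Pluripotency genes are lowest at 0.634 among the inducible ratios. The 2-cell genes are at 0.934, or 0.849 without Sp110 and 0.998 without Dppa2.

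Genes of the 2-cell stage had a list ratio of 0.934 (0.847 to 1.03) over 35 regions and a median of 0.805, with 2 of 32 regions 2-fold lower and 2 higher. Their mz ratio was 1.08 (0.917 to 1.28). The region with the most reads, inside Sp110 (chr1:85591897-85592224), had 17.1 RPKM untreated and 21.1 RPKM treated, and 9.40 and 23.0 RPKM in mz heterozygotes and knockouts. Without that region the list ratio was 0.893 (0.803 to 0.992) and the mz ratio 0.978 (0.819 to 1.17). Without all 4 regions of Sp110 the list ratio was 0.849, below that of housekeeping genes. Leaving out Dppa2 instead, with 9 of 9 regions lower (0.697, 0.551 to 0.879), gave 0.998. The list ratio thus moved in either direction with the gene left out. Usp17la had 1.29 (0.800 to 2.09), while Obox6 had 0.746 (0.584 to 0.950) and Obox5 0.512 (0.314 to 0.819). Several of these genes belong to families of near-identical copies, and the sources used here do not say how reads with several matches were placed, so their values are uncertain.

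Oocyte and maternal-effect genes had a list ratio of 0.739 (0.672 to 0.813) with a median of 0.596, and 10 of 38 regions were 2-fold lower and none higher. Zp3, a zona pellucida gene, went from 24.5 to 12.4 RPKM (0.507, 0.378 to 0.676), and Gdf9, an oocyte growth factor gene, from 12.1 to 15.0 RPKM (1.24, 0.900 to 1.71). Housekeeping genes had 0.868 (0.793 to 0.951) and a median of 0.894, with 5 of 45 regions 2-fold lower, and Rpl13a, a ribosomal protein gene, had 30.2 and 30.3 RPKM over 9 regions (1.00, 0.812 to 1.24). Genes of granulosa and cumulus cells, the somatic cells around the oocyte, had 0.850 (0.755 to 0.956), and 0.737 without Amhr2. Lists overlapped in part: pluripotency and 2-cell genes shared 8 regions (9.30% of the first and 22.9% of the second).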

How the data were processed

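ATAC-seq was compared between 1 untreated and 1 tamoxifen-treated pool of 8-cell embryos, grouped by genotype label and title. The submitters' processing notes name cutadapt, Bowtie2, MACS2 and the mm10 build, with no version or role. Duplicate removal, insertion shift and counting window are not given in the sources used. The authors deposited RPKM per group and region, a ratio per series and classes of regions. The deposited ratio was recomputed from the RPKM columns with the authors' 0.01 added to each and differed by at most 4.27e-09. Every RPKM value was a whole multiple of 1 step within 0.0001 (100% of values), so reads were recovered by division.

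Ratios are of summed RPKM, with exact 95% intervals (scipy 1.17.1, Python 3.11.15), and scripts were tested on simulated data. Regions were called at 2-fold with at least 20 reads. Regions were assigned to the nearest of the RefSeq protein-coding gene spans (GRCm38.p6), and transcription starts came from the RefSeq promoter table. No genome was used, so no region sequence outside promoters is given. Where several groups were formed, no p is given, since each arm is 1 pool.

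Named regions and genes are the 12 regions with the lowest upper and the 12 with the highest lower limit, 1 per gene, the 8 genes with the lowest and the 8 with the highest ratio, and the 3 regions with the most reads per list. Other list genes are named after their values were seen. Members, lists and distance groups were chosen with earlier results of these data known. The 13 lists hold 243 genes. Alternatives were other minimums, pseudocounts, folds and scalings, leaving out autosomes or genes, and an exact binomial test added later. Some items are not reported here.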

Additional observations from a re-analysis of the deposited data

How the results depend on the processing

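The ratio of all, accessible and not accessible regions was 0.707, 0.702 and 0.726 with only regions of at least 20 reads, and 0.789, 0.750 and 0.832 as the median over regions of (RPKM + 1), which understates low regions. Leaving out 1 autosome at a time gave 0.695 to 0.700, 0.693 to 0.698 and 0.700 to 0.706. Counts of 2-fold lower, 2-fold higher, lower and higher relative to the shared ratio were 2650, 124, 1237 and 583. They became 4991, 740, 2502 and 1622 with no minimum and 0.01 RPKM added, 257, 4, 68 and 66 with a minimum of 50 reads, and 1327, 20, 251 and 346 with 1 RPKM added. With a fold of 1.5 they were 4565, 450, 2290 and 1639, and with the 95% interval wholly past 2-fold 229, 0, 55 and 9. An exact binomial test on the recovered reads, chosen after seeing the data and comparing the 2 libraries rather than the conditions, called 1027, 13, 74 and 35 at an adjusted p of 0.05. With a higher minimum fewer regions were counted, and the share called fell as well. The share 2-fold lower was 34.5% with 20 to 29 reads, 27.4% with 30 to 49, 13.3% with 50 to 99 and 0.690% with 100 or more. The cause of this fall was not tested. With chromosome X added, without regions above 20 RPKM, or with the shared ratio taken from the median, each count stayed within 1.5 times. Relative to the shared ratio, the excess of lower over higher regions thus turned with 1 RPKM added and was nearly absent with a minimum of 50 reads. Of 63 named regions (62 distinct, since Krt8 and Krt18 share 1), 60 could be divided by the shared ratio and 3 had 0 untreated reads. For 44 of the 60 the interval kept its call against 1, for 7 it came to include 1 and for 9 it no longer did; in 14 the ratio went from below to above 1. Of 13 list ratios, that of 2-cell genes, whose interval included 1, went from 0.934 to 1.01 with regions within 10 kb, and no other crossed 1. With that distance 3 moved beyond their interval, with the median over regions 4, and without 1 gene 1. Without the Sp110 region with the most reads, an alternative chosen after seeing the data, the 2-cell ratio was 0.893. No paired analysis was possible because each arm of the inducible series is 1 pool and the table holds merged columns.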
